A study of Mus musculus with 6 samples.

Results

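Of 432377 measurable 2 kb tiles of the mouse genome, 956 (0.221%) still held a mean CpG methylation of 50% or more in naive embryonic stem cells (ESCs), whose genome is otherwise poorly methylated. These 956 tiles are described here and called members. A tile is a stretch of 2000 bp on chromosomes 1 to 19. It was measurable where it held 80 or fewer CpG positions and at least 40 reads over CpG sites in each of 6 whole-genome bisulfite libraries. The level of a tile is the number of methylated reads divided by all reads at its CpG sites, and the mean was taken over the 2 ESC libraries. Bisulfite converts unmethylated but not methylated cytosine, so the level is the share of reads in which a CpG cytosine stayed unconverted. The ESC levels chose the members, so every ESC value and every difference from ESCs below is a description without a test.

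The study compared 3 kinds of pluripotent cells with 2 libraries each. ESCs were kept in 2i/LIF, a medium with 2 kinase inhibitors and leukemia inhibitory factor. Advanced pluripotent stem cells (ASCs) came from blastocysts through an intermediate line grown with Activin A and bFGF, and were then kept in ABCL medium, which holds Activin A, BMP4, the Wnt pathway activator CHIR99021 and leukemia inhibitory factor. Primed epiblast stem cells (EpiSCs) stand for the epiblast of the implanted embryo. All 6 libraries are labelled wild type and 129S2/SvPasCrl, and the study describes the cells of all 3 groups as female. Its methods describe ASC derivation from embryos that carried reporter transgenes and descended partly from MF1 and C57BL/6J mice, and name no line for each library. The libraries held between 63803799 and 74925271 CpG reads. Over all measurable tiles the median level was 19.8% ± 0.26 in ESCs, 69.3% ± 0.13 in ASCs and 92.2% ± 0.018 in EpiSCs (SD, n = 2 each), so the libraries labelled ESC were the ones with little methylation.

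CpG methylation is copied to the new strand after each replication by DNMT1 with its partner UHRF1, and is set anew by DNMT3A and DNMT3B. In 2i/LIF both activities are reduced and most methylation is lost. Some endogenous repeats, such as intracisternal A particles, are known to keep methylation there. By a hidden Markov model the study found very few hypermethylated regions in its ESCs, most of them highly methylated in ASCs and EpiSCs. Those regions were defined otherwise than the members and were not compared with them here. For the control regions of imprinted genes, the study reports that its female ESCs had lost every imprint. It reports that ASCs and EpiSCs kept most of them. KRAB zinc finger proteins such as ZFP57 and ZFP445 bind such repeats and control regions and recruit TRIM28, the histone methyltransferase SETDB1 and the DNA methylation enzymes.

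The members can be read at the level of sequence, and a few are shown first because the results below turn on them. The reference sequence is GRCm38, plus strand, with coordinates counted from 1. In the first group, each line is 61 bases around a 25-base word, in capitals, that 10 or more members shared. The first word was held by more members than any other word of mixed composition. The other 3 were picked in order of the share of their holders that were members, among words in 10 or more members. A word was passed over where 50% or more of its members held an earlier pick of these 3.

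Word 1, chr2:58344043-58344103, intron of Acvr1c: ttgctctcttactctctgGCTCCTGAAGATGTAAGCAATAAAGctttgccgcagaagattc
Word 5, chr4:75712520-75712580, intergenic: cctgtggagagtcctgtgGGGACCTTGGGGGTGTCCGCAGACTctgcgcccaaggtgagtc
Word 6, chr17:92249444-92249504, intergenic: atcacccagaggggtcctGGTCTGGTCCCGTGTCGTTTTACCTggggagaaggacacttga
Word 7, chr11:14896979-14897039, intergenic: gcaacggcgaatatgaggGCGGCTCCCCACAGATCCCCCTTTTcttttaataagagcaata

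In the next group, each line is the 200 bases with most CpG sites from a member, with each CpG in capitals. The first 3 members had the highest mean ESC levels, and the last 2 had the largest differences between ASCs and EpiSCs.

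Tile in Qrsl1, chr10:43884605-43884804: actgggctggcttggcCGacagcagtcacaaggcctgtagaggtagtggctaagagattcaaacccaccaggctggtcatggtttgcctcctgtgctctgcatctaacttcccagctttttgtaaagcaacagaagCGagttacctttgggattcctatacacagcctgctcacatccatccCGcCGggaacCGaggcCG
Tile in Cep128, chr12:91230010-91230209: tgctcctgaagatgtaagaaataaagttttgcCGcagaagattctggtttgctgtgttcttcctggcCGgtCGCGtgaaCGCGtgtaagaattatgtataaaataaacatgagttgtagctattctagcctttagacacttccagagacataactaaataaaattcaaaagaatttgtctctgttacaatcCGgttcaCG
Tile with word 7, chr11:14896788-14896987: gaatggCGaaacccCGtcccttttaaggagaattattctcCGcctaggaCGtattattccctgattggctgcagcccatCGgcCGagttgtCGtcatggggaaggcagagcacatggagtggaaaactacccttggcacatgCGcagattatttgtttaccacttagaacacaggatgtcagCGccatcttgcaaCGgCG
Tile in Lsamp, chr16:41622604-41622803: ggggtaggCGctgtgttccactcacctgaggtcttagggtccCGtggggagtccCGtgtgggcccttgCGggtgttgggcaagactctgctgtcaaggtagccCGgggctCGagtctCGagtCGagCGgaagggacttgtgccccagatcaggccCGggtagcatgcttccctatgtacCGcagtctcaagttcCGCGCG
Intergenic tile of chromosome 15, chr15:9991746-9991945: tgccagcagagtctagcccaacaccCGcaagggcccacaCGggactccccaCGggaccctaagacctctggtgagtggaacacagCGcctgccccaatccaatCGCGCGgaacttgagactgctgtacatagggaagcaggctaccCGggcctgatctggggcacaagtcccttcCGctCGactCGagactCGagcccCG

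These stretches hold 6, 8, 11, 14 and 13 CpG sites in the order shown. The last 2 lie on different chromosomes. They align to each other on opposite strands over 97 bases with 97.9% identity and over another 95 bases with 95.8%.

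Members were intermediately methylated in ESCs and close to fully methylated in the other cells. The median member level was 53.1% and 53.9% in ESC replicates 1 and 2, 86.8% and 86.6% in the ASC replicates and 94.4% and 94.6% in the EpiSC replicates. As group values these were 53.5% ± 0.59 in ESCs, 86.7% ± 0.14 in ASCs and 94.5% ± 0.11 in EpiSCs (SD, n = 2 each). The ESC value followed from the rule, while the ASC and EpiSC values did not. All measurable tiles stood at 69.3% in ASCs, well under the members, and at 92.2% in EpiSCs, where members and other tiles were both near the upper end of the scale.

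**Figure D1:**
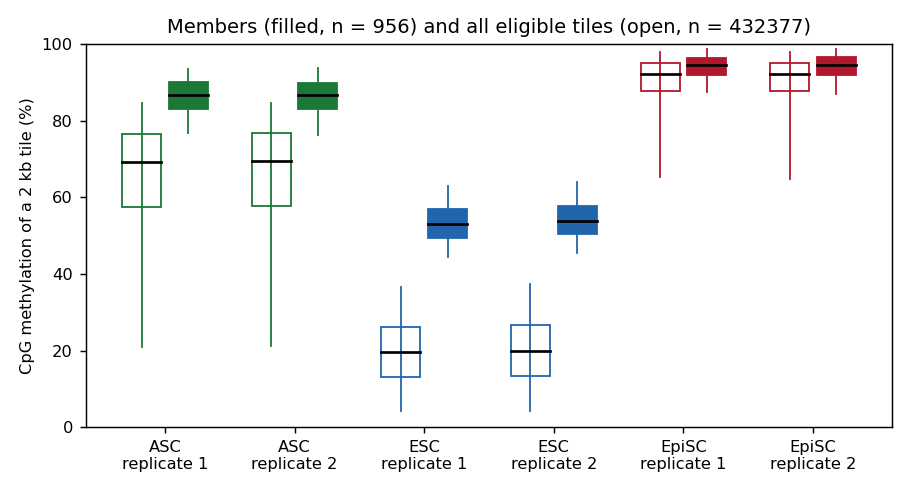
CpG methylation of 2 kb tiles (%) in each of the 6 libraries, for the 956 members (filled boxes) and all 432377 measurable tiles (open boxes). Boxes span the middle 50% of tiles, lines the 5th to the 95th percentile, and black bars the median. Member boxes sit above those of all tiles in the ASC and ESC libraries, with ASC medians of 86.8% and 86.6% against 69.2% and 69.4%, and overlap the upper part of those of all tiles in the EpiSC libraries.

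No member was fully methylated in ESCs. The mean ESC level of members ran from 50% to 71.7%, which was also the highest level of any measurable tile. Only 51 members reached 60% and 1 reached 70%. The middle 50% of members lay between 49.4% and 56.9% in ESC replicate 1 and between 50.3% and 57.8% in ESC replicate 2. The lowest level of any member was 61.5% in ASC replicate 1 and 65.2% in ASC replicate 2, each found separately and not in the same tile. The level of a whole tile in a bulk library cannot by itself tell methylation of every cell at some CpG sites from full methylation in a part of the cells or on 1 allele. Levels of single CpG sites, which bear on the first of these, are given next.

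Single CpG sites of members are given as a description, since the same ESC reads chose the tiles. Among sites with 5 or more reads, 77.7% and 78.0% lay between 20% and 80% in the ESC libraries. Sites under 20% made up 8.60% and 7.53%, and sites over 80% made up 13.7% and 14.5%. In all measurable tiles, sites under 20% made up 56.2% and 55.3% of sites in the same libraries, and sites over 80% made up 0.694% and 0.749%. In the ASC libraries 69.9% and 69.2% of the sites in members were over 80%, against 31.1% and 31.6% in all tiles.

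The threshold was strict for the depth of the data, so membership of a single tile was not firm. A tile at 50% with 40 reads has a Wilson interval (95%) of 35.2% to 64.8%. With 98 reads, the median of members in ESC replicate 2, the interval is 40.3% to 59.7%. These intervals count sampling of reads and no other error, and take reads at different CpG sites as independent. Both ESC libraries reached 50% in 480 of the 956 members (50.2%), and in the other 476 one library lay below. The median difference between the ESC libraries was 6.15 points in members without regard to sign, against 3.97 points between ASC libraries and 2.55 points between EpiSC libraries. Over all tiles the order was another, with 4.25 points in ESCs, 5.07 in ASCs and 2.95 in EpiSCs. Sampling of reads taken as independent gives a root mean square difference in members of 7.27 points in ESCs and 5.16 in ASCs. The measured values were 9.20 and 5.92. A read that covers several CpG sites is counted at each, so these intervals and sampling values may understate sampling of reads. The 4 members just inside the threshold had mean ESC levels of 50%. The 4 tiles just outside read between 49.98% and 49.99%, and their ASC means ran from 82.2% to 88.7%, against 80.3% to 91.1% just inside.

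Choosing on 1 ESC library and reading the other showed how much of the level carried over. Tiles at 50% or more in ESC replicate 1 numbered 1645, with a median of 52.6% there, and their median in ESC replicate 2 was 44.3%, against 20% for all tiles there. Of these tiles 29.2% were again at 50% or more, against 0.443% of all tiles. The reverse choice gave 1915 tiles, at 52.8% in the library that chose them, with a median of 43.6% in ESC replicate 1, against 19.6% for all tiles, and 25.1% of them were at 50% or more, against 0.380%. Few of the chosen tiles fell to the ordinary level: 98.97% and 99.2% were above the median of all tiles in the library that had not chosen them. Thus the level of chosen tiles was lower in the other library, and stayed far above that of other tiles. By depth in ESCs, shares of members were alike. The share of members was 0.217% among tiles with 40 to 60 reads in the shallower ESC library and 0.227% among those with 200 or more, while the share of members with both libraries at 50% or more rose from 46.0% to 64.3%. By a minimum over all 6 libraries the share was lower at greater depth, with 1868 members of 695966 tiles at 20 reads, 956 of 432377 at 40 and 179 of 110959 at 100.

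The 12 members with the highest mean ESC level were scattered over 7 chromosomes, and none of them lay at a gene start. The highest overlapped an exon of Qrsl1 (chromosome 10, 43884001 to 43886000), a subunit of the mitochondrial enzyme that makes glutaminyl-tRNA. It read 70.4% and 73.0% in ESCs, 88.2% and 87.2% in ASCs and 98.2% and 94.2% in EpiSCs, with between 52 and 110 reads per library. ESCs were lowest and EpiSCs highest, without overlap between groups (adjusted p = 0.0282 for ASCs against EpiSCs, limma-moderated model). Of its 25-base words 4.05% had 20 or more copies in the genome, and 22.55% of its bases were masked as repeat, against medians of 2.35% and 20.4% over all tiles.

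Next came the exonic tile in Cep128 (chromosome 12, 91230001 to 91232000), a gene that codes for a centriole protein. It read 73.3% and 65.1% in ESCs, 86.4% and 92.9% in ASCs and 95.8% and 91.8% in EpiSCs. The ASC and EpiSC libraries overlapped there (adjusted p = 0.303, limma-moderated model). The third tile, the intergenic one on chromosome 11 that holds word 7, read 71.4% and 64.9% in ESCs, 87.8% and 92.5% in ASCs and 92.9% and 95.2% in EpiSCs, and 62.2% of its words were repeated. The ESC libraries lay below the 4 others in each of these tiles. A tile in an intron of Acvr1c, a type I receptor for activin-like ligands, was masked as repeat over 100% of its length. It read 68.9% and 66.1% in ESCs, 91.2% and 94.0% in ASCs and 87.3% and 88.2% in EpiSCs, so that ASCs were the highest group (difference 4.86 points, adjusted p = 0.324).

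The remaining 8 of the 12 lay in introns of Dnajc1, Stxbp4 and Htr1f and in intergenic sequence whose nearest protein-coding starts were those of Dmac1, Vwc2, Slain1, Lrfn5 and Zfp971. Their mean ESC levels ran from 64.7% to 67.3%. The tile whose nearest start was that of Lrfn5, 1368851 bp away, at chromosome 12 from 62892001 to 62894000, differed from the rest in ASCs. It read 61.0% and 68.6% in ESCs, 63.6% and 80.8% in ASCs and 90.5% and 90.6% in EpiSCs, and the ASC and ESC libraries overlapped. With a difference of 18.3 points between ASCs and EpiSCs (adjusted p = 0.00677) it fell short of the 20 points required for a call. The value rested on which ASC library was used: it was 26.9 points, and called, without ASC replicate 2, and 9.75 points (adjusted p = 0.108) without ASC replicate 1. It was the only member in which the ASC libraries did not both exceed both ESC libraries, a count of 955 of 956 members that stood beside 99.2% of all tiles.

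**Figure D2:**
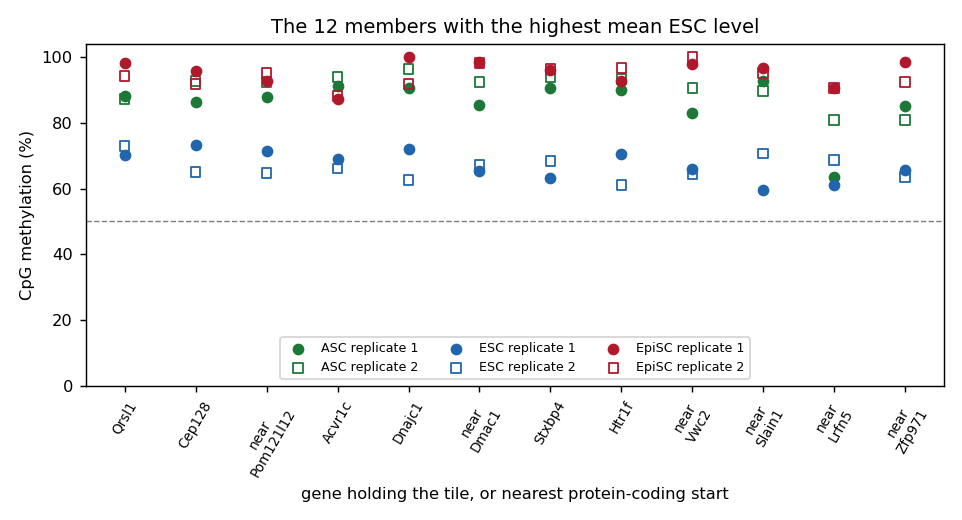
CpG methylation (%) of the 12 members with the highest mean ESC level in each library, with circles for replicate 1 and squares for replicate 2, and a dashed line at 50%. Tiles are named by the gene that holds them or by the nearest protein-coding start. The ESC points lie between 59.6% and 73.3% and below the EpiSC points in every tile, and ASC points reach down to the ESC points only in the tile whose nearest start is that of Lrfn5, which the axis names by it although it is 1368851 bp away.

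The comparison that the choice of members left free was ASCs against EpiSCs. It asks whether ASCs, which are less methylated than EpiSCs over the genome, were also less methylated here. A logistic model with a term for group was fitted to the reads of every measurable tile in all 6 libraries, with a dispersion moderated over all tiles. A tile was called where the adjusted p of the two-sided F test fell under 0.05 and the gap between group means reached 20 points. Of the 956 members 13 (1.36%) were called lower in ASCs, where 54.2% of all tiles were. None was called higher, against 0.102% of all tiles. Few members had room for such a call, since 99.4% and 99.3% of them stood at 80% or more in the EpiSC libraries. Over all tiles these shares were 90.0% and 89.8%. With 40 points required, 0 members were lower, against 12.2% of all tiles, and 0 higher, against 0.0134%. The median difference of ASCs from EpiSCs was -7.57 points in members and -21.1 points in all tiles. The count was small and moved with single libraries: 26 members were called lower without ASC replicate 1 and 23 without ASC replicate 2, against 13 with all libraries.

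Lower levels in ASCs were still the rule when no size of difference was required. At an adjusted p under 0.05 alone, 530 members (55.4%) were lower in ASCs, against 91.1% of all tiles, and 1 was higher, against 0.329%. Both EpiSC libraries exceeded both ESC libraries in all 956 members, against 99.8% of all tiles. Both ASC libraries lay below both EpiSC libraries in 758 members (79.3%), against 95.7% of all tiles. They lay above both in 9 members (0.941%), against 0.556% of all tiles. The 1 member that was higher lay on chromosome 3 from 144622001 to 144624000, between genes and 51697 bp from the start of Selenof. It was picked out after its values were seen, and read 88.6% and 80.2% in ASCs, 71.5% and 70.8% in EpiSCs and 51.1% and 49.01% in ESCs (difference 13.3 points, adjusted p = 0.00149).

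The members continued a trend over all tiles. Sorted by their mean ESC level, tiles under 10% had medians of 29.3% and 29.7% in the ASC libraries, tiles between 20% and 30% had 73.4% and 73.6%, and tiles between 40% and 50% had 83.1% and 83.2%. Members between 50% and 60% had 86.7% and 86.5%, and the 51 members at 60% or more had 88.2% and 89.6%. EpiSC medians rose over the same classes from 85.3% and 85.2% to 95.1% and 94.6%. The share of tiles called lower in ASCs fell from 76.2% in the lowest class to 5.56% in the class just under the threshold, 1.44% in members under 60% and 0 of 51 above. ASCs thus approached EpiSCs step by step along the ESC level, with no jump at 50%.

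**Figure D3:**
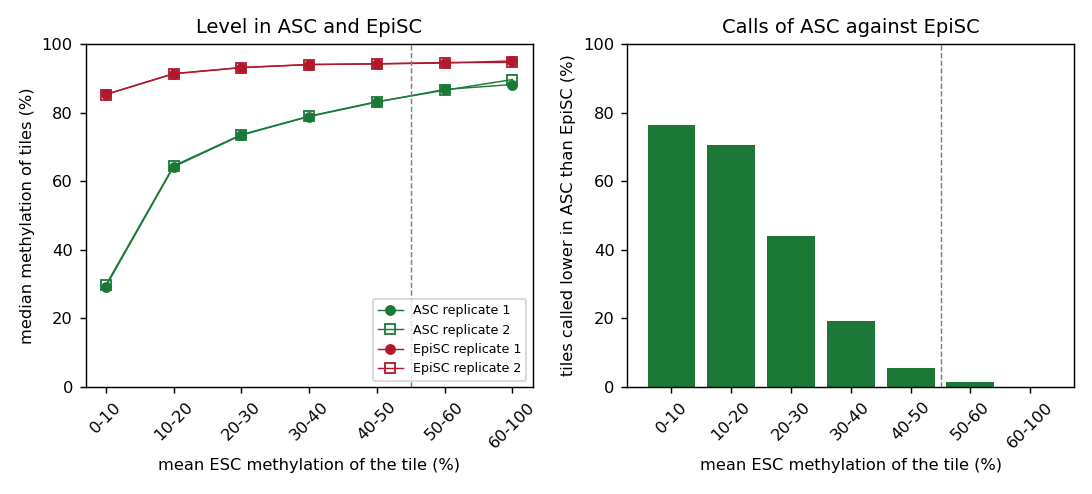
All measurable tiles grouped by mean ESC methylation (x axis, %), with a dashed line at the 50% that members had to reach. The left panel gives the median methylation (%) of the tiles in each ASC and EpiSC library, and the right panel the share of tiles (%) called lower in ASCs than in EpiSCs. ASC medians climb from 29.3% and 29.7% to 88.2% and 89.6% while the called share falls from 76.2% to 0.

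The 13 members called lower in ASCs kept ASC levels between those of the other groups, with medians over their group means of 51.7% in ESCs, 74.5% in ASCs and 96.1% in EpiSCs. The largest difference was in an intron of Lsamp, a neuronal adhesion molecule, in the tile on chromosome 16 from 41622001 to 41624000 whose sequence is shown above. It read 67.2% and 71.4% in the ASC libraries against 96.2% and 95% in EpiSCs, with 43.2% and 58.1% in ESCs, 26.3 points lower in ASCs (adjusted p = 1.46e-06). Neither ASC library overlapped an EpiSC library, and the call held without any 1 library.

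The intergenic tile on chromosome 15 from 9990001 to 9992000, whose nearest protein-coding start was that of Prlr at 185238 bp, read 80% and 65.8% in the ASC libraries against 97.7% and 100% in EpiSCs, with 51.3% and 58.6% in ESCs. It was 26.0 points lower in ASCs (adjusted p = 1.81e-06), and its ASC libraries stood far apart. Without ASC replicate 2 the difference was 18.9 points and the call was lost. An intergenic tile on chromosome 19 from 9510001 to 9512000 lay 335562 bp from the nearest protein-coding start. It read 75.3% and 68.5% in the ASC libraries against 93.7% and 100% in EpiSCs, with 47.1% and 53.7% in ESCs. The level was 24.9 points lower in ASCs (adjusted p = 3.07e-06, limma-moderated model). At an exon of Ext1, which codes for an enzyme that builds heparan sulfate, the tile on chromosome 15 from 53088001 to 53090000 read 73.9% and 75.4% in the ASC libraries against 97.98% and 96.3% in EpiSCs, with 52.3% and 50% in ESCs. It had the smallest adjusted p of the 13 (22.4 points lower, adjusted p = 7.74e-08), and 2.20% of its words were repeated.

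The other 9 lay in introns or exons of Tent2, a cytoplasmic poly(A) polymerase, of Snx29, of Kdsr, an enzyme of sphingolipid synthesis, of Eps15, an endocytic adaptor, of Cep192, a centrosome protein, and of Padi2, a peptidylarginine deiminase, and in intergenic sequence nearest to Trim52, Dcbld2 and Spry2. Their differences ran from 20.1 to 23.0 points. Of the 13 called tiles 9 lost the call when 1 library was left out, and the 4 that kept it were those in Lsamp, Ext1 and Snx29 and the one on chromosome 19. The tile nearest to Spry2, 17182 bp from its start, moved most, from 20.1 points to 9.98 without ASC replicate 1. CpG sites numbered 19 in the median called tile and 26 in the median of other members.

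Methylation in ESCs was raised around members as well as in them, and fell with distance. Flanks did not enter the rule. Within 0.5 kb of the edge of a member the ESC level was 37.9% ± 0.11, and at 9.5 to 10 kb it was 23.2% ± 0.54 (SD, n = 2 each). All CpG sites of chromosomes 1 to 19 read 18.1% ± 0.25. Most of the fall took place in the first kilobases, with 33.5% at 0.5 to 1 kb and 29.1% at 2 to 2.5 kb.

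A small excess reached much farther. The ESC level was 22.4% ± 0.28 at 10 to 20 kb, 20.9% ± 0.29 at 20 to 50 kb, 19.7% ± 0.35 at 50 to 100 kb and 18.98% ± 0.27 at 200 to 500 kb. ASCs showed the same form, from 80.3% ± 0.18 within 0.5 kb to 65.9% ± 0.54 at 9.5 to 10 kb and 61.6% ± 0.28 at 200 to 500 kb, against 60.1% ± 0.26 for all sites. In EpiSCs the level fell from 93.0% ± 0.025 to 85.6% ± 0.41 and 82.0% ± 0.48 over the same distances, against 80.6% ± 0.53.

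**Figure D4:**
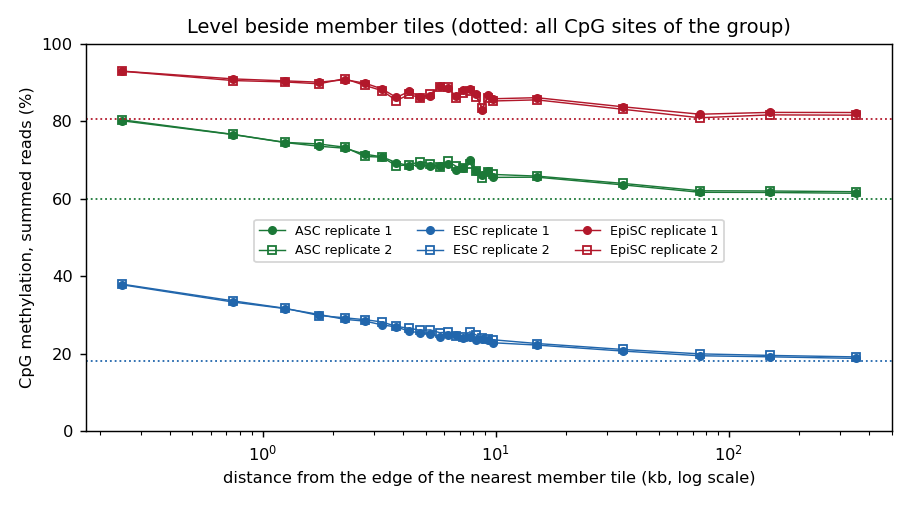
CpG methylation (%) from summed reads against the distance from the edge of the nearest member (kb, log scale), in each library. Circles are replicate 1, squares replicate 2, and dotted lines the level of all CpG sites in each group. The ESC lines fall from 37.8% and 38.0% beside members to 18.8% and 19.17% at 200 to 500 kb, and the replicates lie close together throughout.

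Members were mostly single tiles. There were 919 runs, of which 885 were 1 tile, 31 were 2 adjacent tiles and 3 were 3 adjacent tiles, so 71 members (7.43%) had a neighbour that was a member. A neighbour could be a member only where it was measurable. Of 1197507 tiles with a listed CpG on chromosomes 1 to 19, 432377 were, so runs may be longer than counted here. The 3 longest runs were intergenic and held little repeated sequence. On chromosome 11 from 9886001 to 9892000, far from any protein-coding start, 121 CpG sites had a mean level over the 3 tiles of 56.6% in ESCs, 91.3% in ASCs and 94.9% in EpiSCs. Its deepest tile, from 9888001, read 53.4% and 54.1% in ESCs, 92.0% and 93.0% in ASCs and 95.7% and 97.9% in EpiSCs, with between 242 and 382 reads. The replicates of each group lay close together there.

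On chromosome 12 from 88092001 to 88098000, 8304 bp from the start of Gm16368, the run held 188 CpG sites and averaged 53.1% in ESCs, 91.1% in ASCs and 93.5% in EpiSCs. The run on chromosome 6 from 58164001 to 58170000 held 46 sites and averaged 55.3%, 87.2% and 90.5%. Between 0.3% and 3.18% of the words of these 3 runs were repeated. Differences between ASCs and EpiSCs in their 9 tiles were at most 6.54 points and none was called. Among runs of 2 tiles, that with the highest ESC level lay on chromosome 16 from 76064001 to 76068000, nearest to Samsn1, at 57.8%. The next, at an exon of Sh3rf1 on chromosome 8 from 61372001 to 61376000, averaged 57.6% in ESCs, 87.2% in ASCs and 95.3% in EpiSCs.

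Members held more repeated sequence than other tiles. A word was counted as repeated where its 25 bases occurred 20 or more times in the genome on either strand. The median share of repeated words was 17.1% in members and 2.35% in all tiles, and the median share of bases masked as repeat in the reference was 42.8% against 20.4%. More than 25% of words were repeated in 367 members (38.4%), against 4% of all tiles. Under 5% of words were repeated in 253 members (26.5%), against 66.0% of all tiles. The cut-off for copies moved the median, to 25.7% at 5 copies and 8.60% at 100 copies, against 4.25% and 1.55% in all tiles.

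The share of tiles that were members climbed with repeat content from 0.0887% of tiles with under 5% repeated words to 1.86% at 25 to 50% and 3.08% at 75% or more. Yet most highly repeated tiles were not members, and their median ESC levels were 28.7% and 29.6% in the class of 75% or more, against 19.6% and 20% in the class under 5%. ASC medians went from 69.6% and 69.8% to 75.3% and 75.4% between the same classes, and EpiSC medians stayed between 92.0% and 93.2% in all classes. Repeated tiles were covered less deeply, with 12.7 reads per CpG over all libraries in the highest class against 25.4 in the lowest, and the part of read mapping in these values was not tested. Inside members the rule bounds the ESC level, so the values by kind of site are a description. Masked CpG sites read 53.6% ± 0.83 in ESCs and unmasked ones 53.6% ± 0.59 (SD, n = 2 each), whereas over all measurable tiles masked sites read 22.0% ± 0.24 and unmasked ones 19.18% ± 0.27. In members, sites in repeated words read 52.0% ± 1.3 in ESCs and 85.1% ± 0.29 in ASCs, and other sites read 53.9% ± 0.55 and 86.8% ± 0.044.

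**Figure D5:**
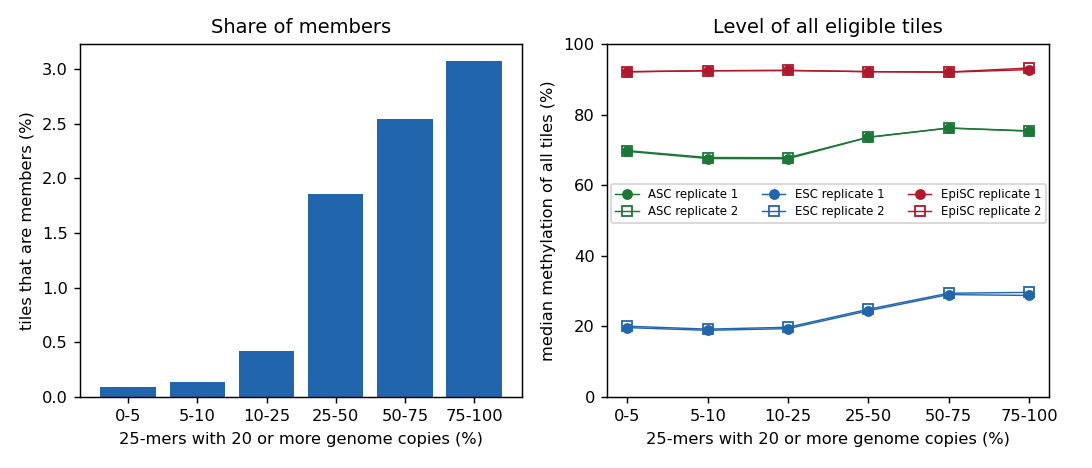
Measurable tiles grouped by the share of their 25-base words with 20 or more genome copies (x axis, %). The left panel gives the share of tiles (%) that are members, which climbs from 0.0887% to 3.08%, and the right panel the median methylation (%) of all tiles of the class in each library. ESC medians go from 19.6% and 20% to 28.7% and 29.6%, while EpiSC medians stay between 92.0% and 93.2%.

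Many members aligned to one another. No repeat annotation was used, so the groups below are defined by alignment alone and carry no repeat names. Joined by alignments of 500 bp or more at 80% identity or more, 452 members (47.3%) fell into 16 families, and the 391 members of the largest were linked through chains, with 13.9% of their pairs aligned directly. A requirement of 1000 bp, set after the data were seen, gave 31 families with 259 members. The 2 largest were then distinct. One held 109 members on 18 chromosomes with a median of 22 CpG sites, and the motif TGCCGC, which ZFP57 binds when methylated, occurred in 8.26% of them. The other held 38 members on 16 chromosomes with a median of 42.5 CpG sites, and 36 of them (94.7%) held the motif.

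The ESC levels of both families were bounded by the rule. In the family of 109 the median member read 53.02% and 54.1% in ESCs, 87.4% and 86.6% in ASCs and 93.8% and 93.3% in EpiSCs. In the family of 38 the values were 53.7% and 54.7%, 88.0% and 87.2%, and 95.7% and 96.4%. Members outside any family of 1000 bp had medians of 52.5% in ESCs, 86.4% in ASCs and 94.5% in EpiSCs. The family of 38 was covered by 11.7 reads per CpG over all libraries, against 27.4 in the family of 109.

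Single words led back to all their copies in the genome, whether members or not. Word 1 was held by 99 members (10.4%) and by 1753 measurable tiles, so that 5.65% of its holders were members. All its holders together had ESC medians of 34.2% and 35.0%, ASC medians of 80% and 80.3% and EpiSC medians of 93.8% and 94.0%, and 93.9% of them lay above the ESC median of all tiles. Thus copies that missed the threshold were raised too. Of 4504 tiles of any depth that held word 1, those 1753 were measurable.

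Words 5, 6 and 7, picked for a high share of members among their holders, were rare. Word 5, from the tile nearest to Dmac1, was held by 22 measurable tiles of which 10 (45.5%) were members, and word 6 by 32 tiles of which 12 (37.5%) were members. Word 7 was held by 54 tiles of which 18 (33.3%) were members. Its holders had ESC medians of 45.5% and 47.7%, ASC medians of 86.7% and 84.8% and EpiSC medians of 94.4% and 94.4%, and 0 of the 54 had a mean ESC level under 20%. Of the 18 members with word 7, 15 also held word 1 and 7 also held word 6.

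Not every repeated word went with a raised level. Words 2, 3 and 4 were picked in turn after word 1. Each was the word held by most members among those that held no earlier pick. Word 3 occurred in 26296 measurable tiles of which 49 (0.186%) were members, a share under the 0.221% of all tiles. Its holders had ESC medians of 18.4% and 18.96%. The remaining pair of the 4, words 2 and 4, had 2.90% and 3.77% of holders among members and median ESC levels of 27.9% and 30.9%. Together words 1, 2, 3 and 4 occurred in 244 members (25.5%). All words were chosen because members held them, so these shares describe the words and test nothing.

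Members were slightly richer in CpG sites than other tiles but not richer in G and C. They held a median of 25 CpG sites against 23, and 44.6% G and C against 45.8%. The share of tiles that were members was 0.184% at 20 or fewer sites, 0.213% at 21 to 40 and 0.487% at 41 to 80. The difference in level from all tiles was widest in that last class, where all tiles had median levels of 12.3% in ESCs and 43.1% in ASCs and members had 52.96% and 87.5%. The motif TGCCGC occurred on either strand in 280 members (29.3%), against 19.4% of all tiles, and within the class of 41 to 80 CpG sites in 54.8% against 43.1%. A match of 6 letters is not a bound site. Reads per CpG over all libraries had a median of 23.6 in members and 24.9 in all tiles.

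Members were more often intergenic than other tiles. Of the 956, 530 (55.4%) were intergenic, against 33.8% of all tiles, 263 (27.5%) lay in introns, against 33.2%, and 156 (16.3%) touched an exon, against 27.9%. Only 7 (0.732%) lay within 1 kb of the start of a protein-coding gene, against 5.04% of all tiles. Gene starts are known to be poorly methylated in most cells, and the median ESC level of all tiles there was 8.53%.

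Among these 7 was Igf2, the imprinted growth factor gene that is expressed from the paternal chromosome. The tile covers its annotated start on chromosome 7 from 142666001 to 142668000 and held 29 CpG sites with between 171 and 209 reads per library. It read 61.96% and 49.2% in ESCs, 84.7% and 80.1% in ASCs and 94.7% and 95% in EpiSCs. The ESC libraries differed by more than 12 points, and the groups did not overlap. ASCs were 12.5 points under EpiSCs with an adjusted p of 7.47e-06 in the limma-moderated model, less than the size required for a call. Only 0.15% of its words were repeated. Imprint control regions were not tested, so the level of this tile does not show a kept imprint.

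The other 6 starts were those of Gm6401, of Syce3, which codes for a part of the meiotic synaptonemal complex, of Heatr5a, of Zfp982, of Veph1 and of Mfap2, a microfibril protein. At Gm6401, on chromosome 14 from 41966001 to 41968000, the tile read 59.6% and 55.6% in ESCs, 77.8% and 70.5% in ASCs and 91.4% and 91.8% in EpiSCs. Its difference of 17.5 points between ASCs and EpiSCs was not called, and was 21.2 points, and called, without ASC replicate 1 and 13.8 points without ASC replicate 2. The other 5 had mean ESC levels between 50.98% and 51.6%, just over the threshold, and none was called.

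Lists of genes with known links to DNA methylation held few tiles, and their counts of members are too small to set against the 0.221% of all tiles. Of 38 imprinted genes with a measurable tile only Igf2 held a member, 1 of 763 tiles (0.131%). The 235 tiles of 26 germline genes, the 188 tiles of 20 genes of naive pluripotency and the 125 tiles of 39 Hox genes held 0 members. In the list of silencing genes 1 of 33 did. It was Zfp445, a KRAB zinc finger gene that acts in keeping imprints, whose tile on chromosome 9 from 122854001 to 122856000 read 53.2% and 52.9% in ESCs, 81.3% and 84.2% in ASCs and 96.7% and 92.3% in EpiSCs. The ESC libraries were within 0.3 points of each other there.

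Zinc finger genes as a class held 6 members in 5 of 391 genes, Zfp445, Zfp982, Zfp423, Zfp277 and Zfp608, or 0.177% of their tiles, near the share of all tiles. Zfp277 held 2 of them. Its tile on chromosome 12 from 40408001 to 40410000, of which 63.45% of words were repeated, read 53.8% and 50.6% in ESCs, 98.98% and 97.03% in ASCs and 97.9% and 98.1% in EpiSCs. The ASC and EpiSC libraries overlapped there (adjusted p = 0.993, limma-moderated model). The other, from 40412001 to 40414000, read 46.03% and 60% in ESCs, 87.1% and 79.01% in ASCs and 90.1% and 98.3% in EpiSCs, 11.2 points lower in ASCs (adjusted p = 0.0178) and not called, and 7.15 points lower without ASC replicate 2 (adjusted p = 0.167). Receptor and protocadherin clusters held 1 member each. They lay at Vmn2r24, a vomeronasal receptor gene, with a mean ESC level of 52.2%, at Olfr129, an olfactory receptor gene, with 50.1%, and on chromosome 18 from 36988001 to 36990000 in the Pcdha cluster, where 7 nested genes share the tile, with 50.8%. These shares of 0.840%, 0.210% and 0.735% of the tiles of each cluster rest on 1 tile each, and in such clusters reads of near-identical genes may be hard to place.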

How the data were processed

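The authors trimmed PBAT reads with Trim Galore, aligned them to GRCm38 with Bismark 0.16.3, removed duplicates and counted methylation with MethPipe, merging both strands of a CpG (its version was not given in the sources used here). Each deposited table lists for each CpG the methylation level as a fraction and its coverage as a raw read count, per library, without pooling. Methylated counts were recovered as their product. The 956 members, the gene lists and the tests were chosen with earlier results of these data known. Methylated and unmethylated reads were fitted per tile with a quasi-binomial model with a term for group, with dispersion moderated by squeezeVar (limma 3.58.1, R 4.3.3) and Benjamini-Hochberg adjustment over all 432377 tiles. The moderation used 405 prior degrees of freedom against 3 residual ones. The p of a tile thus rests mostly on a dispersion shared by all tiles, and little on the spread between its own replicates. On 20000 simulated tiles, 27 of 100 changes of 20 points and 99 of 100 changes of 40 points were called, with 2 of 19800 unchanged tiles. The changes lowered EpiSCs, the reverse of most tiles in the data, and 20 points is also the cut for a call. In the data 91.1% of tiles were lower in ASCs at an adjusted p under 0.05. The simulated shares therefore do not give the sensitivity of the comparison of ASCs with EpiSCs.

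Annotation was GENCODE M21, and sequence was the RefSeq GRCm38.p6 assembly, in which all 20358034 listed sites of chromosomes 1 to 19 fell on CG. Bismark keeps reads with a single best position. Members were aligned with blastn 2.17.0. Words with fewer than 12 distinct 3-base words were left out. Named tiles were the 12 of highest ESC level, those called, the 5 longest runs, those at gene starts, those at the threshold and up to 3 per gene list. The labels number the replicates, and the methods call the DNA samples of each condition biological replicates, without saying whether they were separate lines or cultures. Same-numbered libraries of different groups did not deviate together over tiles (correlations from -0.00583 to 0.00212).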

Additional observations from a re-analysis of the deposited data

How the results depend on the processing

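The number of members depended on the cut-off and on depth more than on the grid. It was 8964 at 40% and 51 at 60%, 1868 with a minimum of 20 reads and 179 with 100, 2065 with an unweighted mean over CpG sites, and between 1645 and 1915 when 1 ESC library was left out. It stayed within 1.5 times with tiles shifted by 1 kb, without the limit on CpG positions, with chromosome X and without the deepest tiles. Median levels moved little: with minima of 20 and 100 reads and the unweighted mean they were 86.2%, 87.6% and 85.1% in ASCs and 94.4%, 94.8% and 95.01% in EpiSCs, and with 100 reads and the unweighted mean 52.9% and 54.4% in ESCs. Leaving out a library gave 86.6% to 86.8% in ASCs, 53.1% to 53.9% in ESCs and 94.4% to 94.6% in EpiSCs.

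Members called lower in ASCs numbered 13 with the replicate block, limma on M values, Fisher's exact test or 4 libraries and 10 without moderation, where 49.1% of all tiles were lower. These settings change the p and not the difference of group means, so a member under 20 points could not gain a call. They numbered 530 without a required difference, 0 at 40 points, 67 of 1868 and 0 of 179 with minima of 20 and 100 reads, which also change the members and where 52.96% and 58.6% of all tiles were lower, and 13 to 26 when a library was left out. Members called higher numbered 1 without a required difference and 2 at 20 reads. At an unadjusted p under 0.05, 1 member was higher by the quasi-binomial model, 1 by limma and 2 by Fisher's exact test. With the replicate block and no required difference 533 members were lower. None of the 51 tiles followed across the alternatives changed its call under the pairing by replicate number, where only the 13 called tiles could. Tiles at the threshold and the one higher in ASCs were not among them. The share of repeated words was 25.7% and 8.60% at 5 and 100 copies, and 259 members were in families at 1000 bp. ESC levels beside members were 37.8% to 38.0% within 0.5 kb and 22.8% to 23.6% at 9.5 to 10 kb when a library was left out. The causes of these shifts were not tested, except that a minimum of 100 reads leaves 110959 tiles. Depth limits single tiles, with as few as 40 reads per library.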

Other observations

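Chromosome X, outside the rule, held 42 tiles with a mean ESC level of 50% or more among 4087 measurable ones, a share of 1.03% against 0.221% on chromosomes 1 to 19. Few tiles of chromosome X passed the read minimum, since each autosome held between 12886 and 33319 measurable tiles. The 2 shares thus come from unlike selections of tiles, and the part of depth in their difference was not tested. The median tile of chromosome X read 20.5% and 20.8% in ESCs, 65.0% and 64.9% in ASCs and 89.2% and 89.4% in EpiSCs, close to the other chromosomes in ESCs. Between autosomes the share ran from 0.132% on chromosome 19 to 0.415% on chromosome 3. The median ASC level over all tiles was 68.8% on chromosome 19 and 70.8% on chromosome 3.

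Members were spread over 638 of 2410 windows of 1 Mb that held a measurable tile, and 30 windows with 4 or more members held 135 of them. The fullest held 7 members each, on chromosome 10 from 83000001 to 84000000 and on chromosome 16 from 76000001 to 77000000. All tiles of these windows had median ESC levels of 25.1% and 27.3% in that order. The windows were examined after the data were seen.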
